A study of Mus musculus with 6 samples.

Results

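Enteroendocrine progenitors that carried the transcription factor transcript Neurog3 were picked from single-cell transcriptomes of the mouse small-intestinal epithelium. A barcode, the tag of 1 droplet and usually of 1 cell, was taken as a member if it had at least 500 genes, at most 25% of its UMIs from mitochondrially encoded genes, at least 2 UMIs of Neurog3, and fewer than 50 UMIs per 10000 summed over 8 hormone genes (Cck, Gcg, Gip, Ghrl, Sst, Nts, Pyy and Sct). A UMI marks 1 captured RNA molecule. This rule gave 314 members among 26153 deposited barcodes, or 1.21% of the 26045 that met the limits on genes and mitochondrial UMIs. The study set mice labelled Itgb7 KO beside wild-type mice, all C57BL/6J and 8 weeks of age, with 3 libraries of small-intestinal epithelial cells in each group. The labels give neither the number of animals behind a library nor how the Itgb7 allele was made, so a p-value here speaks only of how far libraries differ, part of which could be technical. Per the series title, the study asked how T cells that carry integrin αEβ7 act on the fate of intestinal stem cells, and here the 171 members from libraries labelled Itgb7 KO were compared with the 143 from wild-type libraries. Members were also compared with hormone-bearing enteroendocrine cells and with secretory progenitors that carry Atoh1 and Dll1.

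Enteroendocrine cells are the hormone-releasing cells of the gut lining and are renewed from stem cells at the base of the crypt. A daughter cell that escapes Notch signalling switches on Atoh1 and enters the secretory lineage, which makes goblet, Paneth, tuft and enteroendocrine cells. Neurog3, a basic helix-loop-helix transcription factor, is then expressed for a short time in the cells that will become endocrine, and mice without it lack enteroendocrine cells in the intestine. Its targets and partners include Neurod1, Insm1, Pax4 and Nkx2-2, which carry the cell on towards Isl1, Pax6 and the hormone genes.

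Neurog3 (ENSMUSG00000044312) lies on chromosome 10 at chr10:62133090-62134763, plus strand, of mouse build GRCm38. Neurod2 and Nkx2-2, also transcription factor genes, were among the 8 genes whose members' levels were most like those of Neurog3. Promoter windows were searched for the E-box that factors of this family bind. Neurod2 and Nkx2-2 are shown with Neurog3 as the transcription factor genes among the 8 whose windows were searched. They were also the only 2 searched genes with a site. The windows below run from 250 bases before to 50 bases after a start given by RefSeq on GRCm38.p6. They are written 5′ to 3′ on the gene's own strand, with capitals marking CAGATG or its reverse complement CATCTG. For Nkx2-2 that start lies inside the gene as placed by GENCODE (chr2:147177546-147194243, minus strand), not at its 5′ end. They lie at chr10:62132840-62133139 (plus strand) for Neurog3, chr11:98329596-98329895 (minus strand) for Neurod2 and chr2:147186353-147186652 (minus strand) for Nkx2-2.
Neurog3: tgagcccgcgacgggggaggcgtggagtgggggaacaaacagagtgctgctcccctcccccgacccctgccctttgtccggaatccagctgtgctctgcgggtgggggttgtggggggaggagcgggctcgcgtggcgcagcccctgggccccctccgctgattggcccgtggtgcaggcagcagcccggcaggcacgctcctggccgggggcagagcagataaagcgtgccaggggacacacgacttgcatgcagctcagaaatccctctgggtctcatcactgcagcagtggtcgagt
Neurod2: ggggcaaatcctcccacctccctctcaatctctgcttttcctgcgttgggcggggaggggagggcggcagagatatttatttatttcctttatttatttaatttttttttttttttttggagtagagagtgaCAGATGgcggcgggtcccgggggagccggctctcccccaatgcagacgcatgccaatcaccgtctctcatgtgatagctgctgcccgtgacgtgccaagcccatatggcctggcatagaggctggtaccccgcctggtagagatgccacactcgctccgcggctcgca
Nkx2-2: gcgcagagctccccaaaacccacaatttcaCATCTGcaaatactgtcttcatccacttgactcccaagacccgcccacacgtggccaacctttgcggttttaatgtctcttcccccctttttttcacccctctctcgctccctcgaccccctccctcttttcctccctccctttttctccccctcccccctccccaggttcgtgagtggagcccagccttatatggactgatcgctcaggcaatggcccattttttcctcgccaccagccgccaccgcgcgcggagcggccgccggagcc
The Neurod2 window held 1 site, which began at position -118 from the start, and the Nkx2-2 window held 1, which began at -220. The Neurog3 window held 0. Of the 9 genes looked up (Neurog3 and the 8 most like it), 6 had a window that was searched, and those of Slc39a2, Ooep and Crybb1 held 0 sites. Insm1 and Pax4 were among the 9, as was Gfra3. Over all mouse genes with a window, 5196 of 27025 (19.2%) held a site, counting both strands and overlapping matches. A match is a description of letters and shows no binding.

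The label of the cells was checked with Neurod1, which the rule did not use. A UMI of Neurod1, a factor downstream of Neurog3, was found in 55.1% of members (173 of 314, 95% exact binomial interval 49.4 to 60.7%), against 1.33% of 602 enterocyte barcodes high in Apoa1, a cell type that should lack it. The Apoa1-high barcodes were chosen without a Neurog3 UMI and with hormones under the same limit, so their Neurod1 share is not independent of that choice. Median depth per library was 3424 to 30586 UMIs in members and 7355 to 20936 UMIs in the Apoa1-high barcodes. After each barcode was thinned to 3000 UMIs, with 21 members left out as too shallow (20 from Itgb7 KO replicate 3 and 1 from wild-type replicate 3), the shares were 43.0% and 0.168%. Intervals of this kind cover counting error only.

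The share of barcodes with Neurod1, pooled over libraries, was far higher from 2 Neurog3 UMIs upward. Of the 45 barcodes with exactly 2 Neurog3 UMIs, 44.4% also held Neurod1, against 3.89% of the 489 with 1 and 1.37% of the 24921 with 0. Among barcodes with at least 5 the share was 56.3% of 229. Wild-type replicate 1 had 7 barcodes with exactly 2, among them 2 rich in Paneth RNA with 0 Neurod1 UMIs, described below. Whether the threshold parts kinds of cell in each library was not tested. In Apoa1-high barcodes, 12 of 614 (1.95%) held at least 1 Neurog3 UMI and 0 held 2, which allows a share of up to 0.489%. A single Neurog3 UMI was thus also found in cells that should lack the gene. At the hormone limit, 14 members had 25 to 50 hormone UMIs per 10000, while 4 barcodes with 2 or more Neurog3 UMIs lay just above at 50 to 75 and 1 at 75 to 100. The other 20 excluded barcodes had 100 or more. Members held a median of 10.96 Neurog3 UMIs per 10000 (quartiles 4.87 to 21.3).

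Wild-type replicate 1 stood apart. Of its 23 members, 2 had 30.4 and 37.0% of their UMIs from genes of Paneth cells, the antimicrobial cells of the crypt base, and each held 2 Neurog3 UMIs and 0 Neurod1 UMIs. With 141987 and 256426 UMIs they made up 37.2% of the members' UMIs in that library, and its other members had at most 4.27% Paneth UMIs. Summed over 11 measured Paneth markers, members had 3307, 516.5 and 376.3 CPM (counts per 1000000 UMIs of the cells summed) in Itgb7 KO libraries, against 126672, 450.7 and 933.9 CPM in wild-type libraries. That library also had the deepest barcodes, with a smallest total of 13621 UMIs against 1417 to 7754 UMIs in the others. Replicates 1 of both groups carry adjoining serial numbers and had the 2 highest medians of UMIs per barcode, so they were also treated as a batch set apart from replicates 2 and 3. Results by genotype are therefore given with and without this library, these 2 barcodes or that batch term.

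Markers of other cell types were also summed. Goblet markers came to 13959 to 25380 CPM over 12 genes in members, against 24114 to 39784 CPM in all other barcodes, and in members Tff3, a secreted trefoil peptide, gave 8736 to 12590.4 CPM of this. Enterocyte markers summed to 1005 to 2352 CPM over 13 genes and tuft markers to 433.0 to 1926 CPM over 13, of which Pou2f3, Gfi1b, Il25 and Sh2d6 were at 0. T cell markers summed to at most 8.32 CPM over 11 genes, and 10 of these, Cd3e and Cd8a among them, were at 0 UMIs in members. Libraries held 28475253 to 76133693 UMIs, and pairs of libraries shared 12 to 42 barcode sequences (0.433 to 1.05% of the smaller library).

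The transcript of the targeted gene went against the labels in direction. Over all kept barcodes Itgb7, the β7 integrin subunit, had 18, 33 and 12 UMIs in libraries labelled Itgb7 KO, against 3, 8 and 2 UMIs in wild-type libraries. Members held 1 Itgb7 UMI in all, in replicate 1 of the libraries labelled Itgb7 KO. Over all kept barcodes Itgb7 stood at 0.29, 0.57 and 0.42 CPM in Itgb7 KO libraries, against 0.039, 0.13 and 0.031 CPM in wild-type libraries. A 3' tag may lie outside the altered part of a gene, so the presence of Itgb7 UMIs neither checks nor contradicts the allele. Why these UMIs were more frequent in libraries labelled Itgb7 KO was not tested. Every direction by genotype below rests on the labels.

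The 8 genes whose levels were most like those of Neurog3 were far higher in members than in all other kept barcodes together, a description that follows in part from how the members were chosen. They were ranked by the ratio of CPM in members over all other kept barcodes, taking the lowest of the 6 libraries, among 2744 genes at 50 CPM or more in members. Neurog3 itself had a lowest ratio of 350.3. Next came Neurod2, a neuronal relative of Neurod1 (lowest ratio 82.9, 78.0 ± 37.1 CPM in members), and Slc39a2, a zinc transporter of the ZIP family (70.1, 131.3 ± 62.9 CPM). They were followed by Insm1, a zinc-finger factor of endocrine differentiation (68.1, 845.5 ± 671.9 CPM), and Pax4, a paired-homeobox factor (63.7, 71.4 ± 59.5 CPM). Ooep, first described in oocytes, had a lowest ratio of 59.8 and 93.0 ± 46.0 CPM, and Crybb1, a lens crystallin gene, 57.7 and 56.0 ± 36.2 CPM. The last 2 were Gfra3, a co-receptor for the neurotrophic factor artemin (40.0, 343.0 ± 164.7 CPM), and Nkx2-2, a homeobox factor (33.5, 182.9 ± 112.3 CPM), with SD over 6 libraries throughout. Neurog3 averaged 1060.4 ± 506.1 CPM in members. It stood at 777.2, 1196 and 1585 CPM in Itgb7 KO libraries, against 261.3, 972.3 and 1570.4 CPM in wild-type libraries. The lowest value was that of wild-type replicate 1, where it was 410.04 CPM without the 2 Paneth-rich barcodes.

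The share of Neurog3 progenitors in the epithelium did not differ between genotypes beyond the spread between libraries. They were 1.11, 1.38 and 1.34% of kept barcodes in Itgb7 KO libraries, against 0.829, 1.37 and 0.993% in wild-type libraries. The difference was 0.212 percentage points (exact 2-sided permutation test over libraries, p = 0.3, where 3 against 3 cannot go below 0.1). By the same exact permutation test it was 0.197 points after thinning every barcode to 3000 UMIs (p = 0.5) and -0.116 points at 5000 UMIs (p = 0.6). It was -0.0921 points when only barcodes at or above 1 common UMI minimum were kept (exact permutation test, p = 0.9), which left Itgb7 KO replicate 3 with 37 barcodes and 0 progenitors among them. For each progenitor, Itgb7 KO libraries held 0.677, 1.25 and 1.38 hormone-bearing cells, against 0.304, 0.522 and 0.961 in wild-type libraries, a log2 difference of 0.98 that did not pass the same exact permutation test (p = 0.2). Within replicates 2 and 3 alone the share differed by 0.177 points and the log2 ratio by 0.89, and without wild-type replicate 1 alone by 0.0953 points and 0.57. For the ratio the 2 groups overlapped, since Itgb7 KO replicate 1 lay below wild-type replicate 3. Hormone-bearing cells were 1.44% ± 0.598 of kept barcodes in Itgb7 KO libraries and 0.640% ± 0.356 in wild-type libraries (SD, n = 3 each; exact permutation test, p = 0.2), and the smallest count was 7 cells, in wild-type replicate 1.

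**Figure D1:**
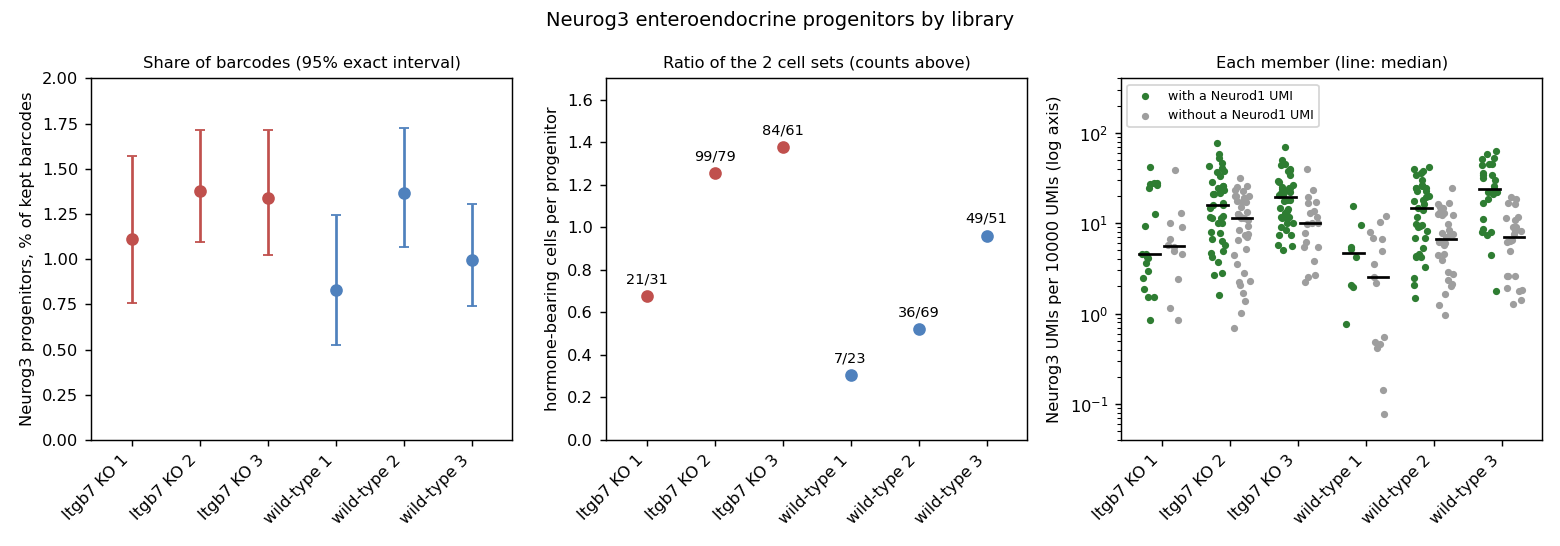
Left, the share of kept barcodes that were Neurog3 progenitors in each library with its 95% exact binomial interval, which covers counting error only; middle, hormone-bearing cells per progenitor with the 2 counts above each point; right, Neurog3 UMIs per 10000 UMIs of each member on a log axis, with and without a Neurod1 UMI, and lines at the medians. The shares lie between 0.829 and 1.38% and overlap between genotypes, the ratio runs from 0.304 in wild-type replicate 1 to 1.38 in Itgb7 KO replicate 3, and the lowest 2 members of all are in wild-type replicate 1.

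Set against secretory progenitors, the members carried an endocrine programme that stood at low levels in the secretory progenitors, and less of the goblet programme. Secretory progenitors were 2861 barcodes with at least 1 UMI each of Atoh1 and Dll1, 0 of Neurog3 and hormones under the same limit. Atoh1, Dll1, Neurog3 and the hormones were therefore not tested. Genes that go with Neurog3, Atoh1 or Dll1 in the same cells are not independent of that choice. UMIs were summed per library and cell set, and edgeR's quasi-likelihood test with library as a term was run over 8419 genes. It called 1620 genes higher in progenitors (19.2%) and 1492 lower (17.7%) at a Benjamini-Hochberg adjusted p under 0.05. Fold changes are log2 values of progenitors over the other cells with their SE, and every gene named as called moved the same way in 6 of 6 libraries unless a count is given.

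Factors of the endocrine lineage were the members' clearest difference from secretory progenitors, which follows in part from the limits on Neurog3. Of 27 enteroendocrine transcription factors, 18 passed the filter on low counts, and 16 of these were called higher and 1 lower (Foxa1, a forkhead factor), with a median of 5.59 against 0.05 over all tested genes. Insm1 had 513.9, 1193 and 1966 CPM in progenitors of Itgb7 KO libraries and 97.99, 913.4 and 389.0 CPM in those of wild-type libraries, against 0.851 to 4.04 CPM in secretory progenitors. The lowest progenitor value was thus more than an order of magnitude above the highest secretory one, and the fold was 8.15 ± 0.24 (adjusted p = 6.42e-11). Neurod1 averaged 305.0 ± 246.9 CPM in progenitors and 0.892 ± 0.407 CPM in secretory progenitors (SD, n = 6 each), a log2 fold change of 7.59 ± 0.21. Neurod2 (8.34 ± 0.27), Pax4 (7.45 ± 0.28) and Nkx2-2 (6.58 ± 0.16) were called too, as was Fev, a serotonergic ETS factor, at 6.62 ± 0.22. Gfra3 rose by 7.57 ± 0.16 on the log2 scale and Hmgn3, a nucleosome-binding protein, by 6.85 ± 0.26.

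Sox4, an SRY-box factor that acts with Neurog3, was present in secretory progenitors and far higher in members. It stood at 1446, 2284 and 2234 CPM in progenitors of Itgb7 KO libraries and 467.6, 1996 and 2571 CPM in those of wild-type libraries, against 62.9 to 135.1 CPM in secretory progenitors (4.0 ± 0.20, adjusted p = 7.48e-09). Among genes of the Notch pathway, 11 were tested, 5 were called higher and 1 lower. Lfng, a glycosyltransferase that modifies Notch (0.90 ± 0.15), Hes6, a Hes family member that opposes Hes1 (0.79 ± 0.08), and the receptor Notch1 (1.24 ± 0.22) were higher, while Hes1, the repressor that Notch switches on, was lower at -0.88 ± 0.15. Dll1, the Notch ligand used to choose the secretory progenitors, was at 58.8 to 184.2 CPM in members and 83.2 to 290.1 CPM in secretory progenitors, so the ranges overlapped.

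Genes of the goblet and Paneth lineages were lower in members than in secretory progenitors, which were themselves rich in goblet RNA. Goblet markers summed to 104144 to 124470 CPM over 12 genes in secretory progenitors, against 13959 to 25380 CPM in members. In all barcodes other than members the sum was 24114 to 39784 CPM. All 12 goblet markers tested fell, with a median of -3.65. The part of goblet cells among the secretory progenitors in this fall was not tested. Muc2, the main intestinal mucin, averaged 275.6 ± 200.5 CPM in progenitors and 2661 ± 511.1 CPM in secretory progenitors (-3.70 ± 0.31), and Tff3 10421 ± 1354 CPM in progenitors and 37279.9 ± 4304 CPM in secretory progenitors (-2.01 ± 0.10). Of 7 tested genes of secretory fate, Spdef (-2.57 ± 0.19) and Gfi1 (-2.38 ± 0.28), both factors of goblet and Paneth differentiation, fell, as did Foxa3 and Xbp1 (-1.25 ± 0.11), a factor of the secretory stress response. Of 8 tested Paneth markers 5 fell, Mmp7, a protease that activates defensins, by 2.14 ± 0.36. Paneth markers summed to 8547 to 58521 CPM in secretory progenitors, highest in Itgb7 KO replicate 1. Barcodes with more than 10% Paneth UMIs numbered 28 in Itgb7 KO replicate 1 (16.2% of its secretory progenitors' UMIs) and 27 in wild-type replicate 1 (15.3%), against 7 to 11 in each other library, and the part of these barcodes in the goblet and Paneth differences was not tested. The defensin genes have near-identical copies between which the counting may split reads, so single defensins are uncertain.

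Granule genes were already raised in members, but by their sum only in those with a Neurod1 UMI. Over 30 listed genes of granules and hormone processing, members with a Neurod1 UMI had 2034 to 14166 CPM. Members without one had 280 to 565 CPM, which overlapped the 330 to 475 CPM of secretory progenitors. Of 11 tested genes of secretory granules and hormone processing, 9 were called higher and 2 lower, and of 8 enterochromaffin genes 7 were called higher and 1 lower (Reg4, in 5 of 6 libraries). Chgb, a granin of hormone granules, averaged 2812 ± 1893 CPM in progenitors and 23.4 ± 10.2 CPM in secretory progenitors (6.35 ± 0.40), and Chga, its relative, 238.3 ± 106.0 CPM and 8.16 ± 3.66 CPM (4.36 ± 0.35). Tph1, the rate-limiting enzyme of serotonin synthesis in the gut, was higher by 5.96 ± 0.38, and Tac1, which encodes substance P, by 5.93 ± 0.29. Cell-cycle inhibitors were mixed, with 5 of 12 tested called higher and 2 lower. Cdkn1c, the inhibitor p57, averaged 190.3 ± 132.8 CPM in progenitors and 6.18 ± 1.06 CPM in secretory progenitors (4.36 ± 0.30), and the stress genes Gadd45a (2.90 ± 0.17) and Gadd45g (1.82 ± 0.13) were also higher.

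S-phase genes lay mostly lower in members than in secretory progenitors, and few genes of G2 and mitosis were called. The 22 tested S-phase genes had a median of -0.27, against 0.05 over all tested genes, and 1 had a positive fold. Over all tested genes 17.7% were called lower. Of 22 S-phase genes 6 fell and 0 rose, among them the replication clamp Pcna (-0.69 ± 0.15), and of 23 genes of G2 and mitosis 2 fell, Mki67 and Aurkb, by 0.39 ± 0.13 and 0.49 ± 0.18 (each lower in 4 of 6 libraries). The Mki67 call was lost without Itgb7 KO replicate 1 or 2 or wild-type replicate 3, and the Aurkb call without any 1 Itgb7 KO replicate or wild-type replicate 3. Stem cell genes were mixed, with Prom1, a membrane protein of crypt cells (1.67 ± 0.13), and Msi1, an RNA-binding protein (1.85 ± 0.21), among 5 of 18 called higher, and Lgr5, the stem cell receptor, at 0.42 ± 0.32 (adjusted p = 0.349). Of 14 tested interferon response genes 9 fell, such as Ifi27l2b (-2.37 ± 0.14) and Bst2 (-1.72 ± 0.15), and of 9 class I antigen presentation genes 5 fell, H2-K1 by 0.88 ± 0.10.

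**Figure D2:**
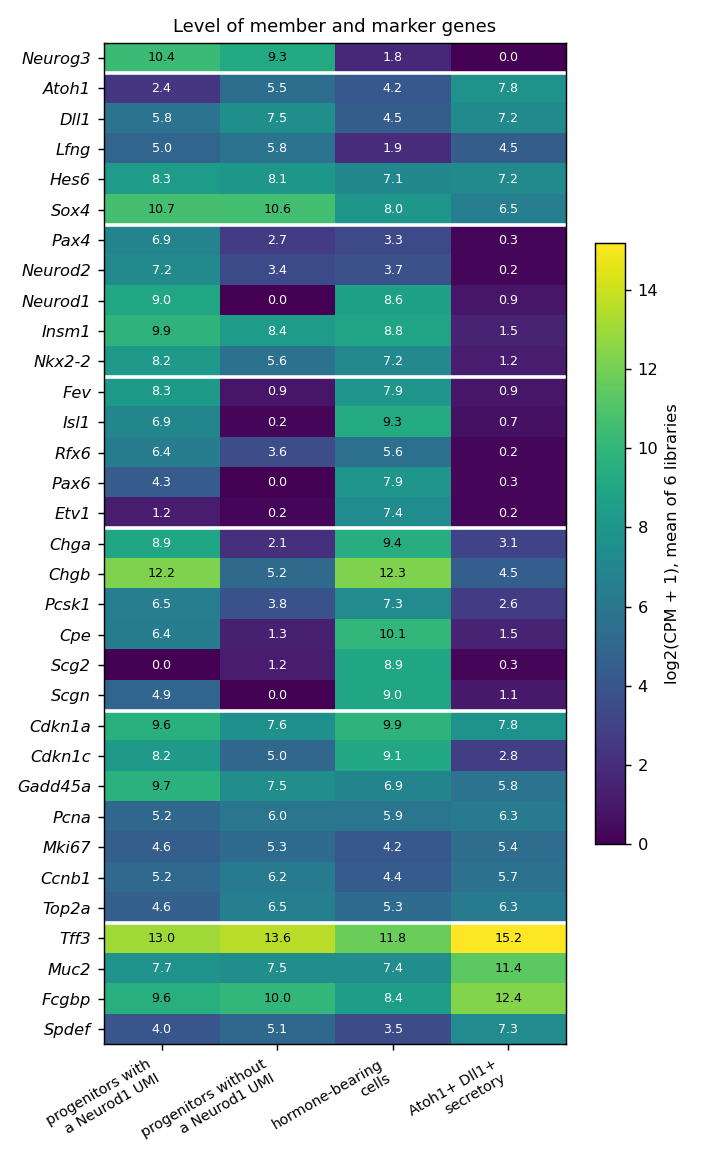
Level of each gene as log2(CPM + 1), averaged over 6 libraries (printed in each cell and shaded), in progenitors with a Neurod1 UMI, progenitors without one, hormone-bearing cells and secretory progenitors with Atoh1 and Dll1. White lines separate Neurog3, Notch and secretory genes, early factors, later factors, granule genes, cell-cycle genes and goblet genes; Neurog3, Atoh1, Dll1 and Neurod1 were used to choose 1 or more of the columns.

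Set against hormone-bearing enteroendocrine cells, the members had more of the early factors and Notch ligand and far less of the granule and late-factor programme. Hormone-bearing cells were 296 barcodes with at least 50 hormone UMIs per 10000 and under 2 Neurog3 UMIs, and another 25 barcodes met both limits and were in neither set. The hormones themselves and Neurog3 were not tested, but genes that go with the hormones in the same cells are not independent of that choice. Of 4981 genes tested in the same way, 695 were called higher in progenitors (14.0%) and 731 lower (14.7%), with a median over all of 0.01. In wild-type replicate 1 the hormone-bearing cells numbered 7 and their Paneth, goblet and hormone sums rest on few cells.

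Early genes were higher in progenitors. Sox4, at the progenitor levels given above, had 169.3, 289.9 and 301.4 CPM in hormone-bearing cells of Itgb7 KO libraries and 228.0, 299.9 and 315.7 CPM in those of wild-type libraries, a fold of 2.70 ± 0.17 (adjusted p = 2.87e-09). Dll1 had 89.4, 175.5 and 184.2 CPM in progenitors of Itgb7 KO libraries and 58.8, 175.5 and 141.4 CPM in those of wild-type libraries, against 11.999 to 42.3 CPM in hormone-bearing cells (2.52 ± 0.19). The sets did not overlap for either gene. Of 12 tested early endocrine progenitor genes 7 were called higher and 1 lower, and of 6 Notch pathway genes 4 and 1. Lfng rose by 3.72 ± 0.34, Hes6 by 1.12 ± 0.12, Gadd45a by 1.90 ± 0.15 and Smarcd2, a chromatin remodelling subunit, by 2.16 ± 0.19. Slc39a2 averaged 131.3 ± 62.9 CPM in progenitors and 4.92 ± 5.43 CPM in hormone-bearing cells, a log2 fold change of 4.51 ± 0.31.

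The 20 tested enteroendocrine transcription factors divided, with 5 called higher in progenitors, 9 lower and 6 not called. Pax4, which stood at 31.9, 52.4 and 176.2 CPM in progenitors of Itgb7 KO libraries and 9.33, 58.9 and 99.8 CPM in those of wild-type libraries, was at 0 to 28.0 CPM in hormone-bearing cells (2.05 ± 0.36, adjusted p = 0.00043). Neurod2 was higher by 2.09 ± 0.31. Insm1 (0.43 ± 0.17, adjusted p = 0.0618), Nkx2-2 (0.20 ± 0.16, adjusted p = 0.377) and Rfx6, a winged-helix factor (-0.26 ± 0.19, adjusted p = 0.338), did not pass the test. Neurod1 was lower in progenitors by 0.78 ± 0.16 on the log2 scale, in 5 of 6 libraries, and Fev was at -0.88 ± 0.19, also lower in 5 of 6. Isl1, a LIM-homeobox factor of late endocrine differentiation, had 94.2, 113.2 and 128.1 CPM in progenitors of Itgb7 KO libraries and 10.3, 25.2 and 49.9 CPM in those of wild-type libraries, against 287.97 to 1103.6 CPM in hormone-bearing cells (-3.46 ± 0.29). Pax6 (-4.09 ± 0.26) and Etv1, an ETS factor for which members held 4 UMIs in all (-7.12 ± 0.31), were lower as well.

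Granule genes were lower in progenitors almost throughout. Of 30 listed genes 23 were tested and 22 were called lower, with Rab3d the exception and a median of -2.43 against 0.01 over all genes. Chga had 191.5, 329.7 and 328.3 CPM in progenitors of Itgb7 KO libraries and 56.0, 301.7 and 222.6 CPM in those of wild-type libraries, against 232.0 to 1415 CPM in hormone-bearing cells (-1.72 ± 0.14), and Chgb was nearer at -1.14 ± 0.24. Scg2, a granin, had 5 UMIs in all members together and 1380 UMIs in hormone-bearing cells, and Rbp4, a retinol carrier, 9 and 2005 UMIs. The granule gene Scgn (-5.17 ± 0.22), the peptide-processing enzymes Cpe (-4.69 ± 0.22) and Pam (-4.45 ± 0.20), and Abcc8, a subunit of the potassium channel of hormone release (-5.37 ± 0.36), were lower too. Of 7 enterochromaffin genes 6 were called lower, Tph1 by 0.81 ± 0.22 in 5 of 6 libraries. That call was lost without wild-type replicate 2. The 8 hormone genes of the rule do not include Tph1 or Tac1. Enterochromaffin cells with Neurog3 could therefore be counted as members, and those without the 8 hormones were not counted as hormone-bearing.

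Mitotic genes stood higher in progenitors than in hormone-bearing cells, and S-phase genes did not pass the test. Summed over 23 genes of G2 and mitosis, progenitors were higher in every library but wild-type replicate 1. There they had 1546 CPM, against 1992 CPM in its 7 hormone-bearing cells. Of 15 tested genes of G2 and mitosis 9 were called higher and 0 lower, with a median of 1.02, while of 10 S-phase genes 0 were called, with a median of 0.06. Ccnb1, the mitotic cyclin, averaged 65.2 ± 21.6 CPM in progenitors and 28.0 ± 22.4 CPM in hormone-bearing cells (1.38 ± 0.27, adjusted p = 0.00108). Mki67, a proliferation marker, was at 0.49 ± 0.28 (adjusted p = 0.216), and a UMI of it was found in 22.9% of members and 9.46% of hormone-bearing cells, or 7.17 and 4.49% at 3000 UMIs. Cdkn1a, the inhibitor p21, and Cdkn1c were lower in progenitors by 1.06 ± 0.15 and 1.85 ± 0.25. Tff3 was higher by 1.61 ± 0.20, as were 4 of 10 tested goblet markers in all. Of 6 tested Paneth markers 3 were called higher, and 2 once the Paneth-rich barcodes were left out, and the part of Paneth or goblet RNA in these differences was not tested.

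**Figure D3:**
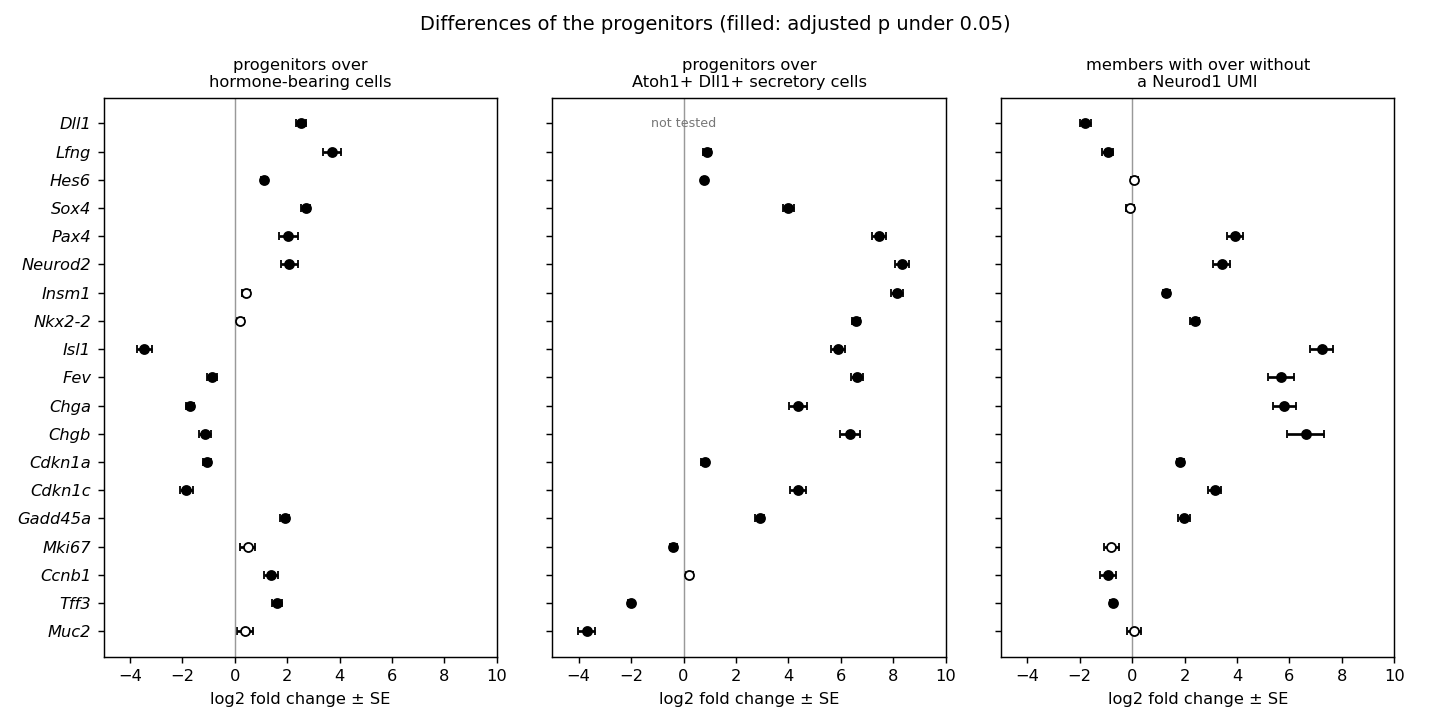
Log2 fold changes with SE bars for 19 genes, of progenitors over hormone-bearing cells (left), progenitors over secretory progenitors (middle) and members with over members without a Neurod1 UMI (right); filled points have an adjusted p under 0.05. Isl1 lies at -3.46 on the left and above 5 in the other 2 panels, while Dll1 is at 2.52 on the left and -1.79 on the right and was not tested in the middle.

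Members also differed among themselves. They were split by whether they held a Neurod1 UMI, and the 173 with one had a median of 16.4 Neurog3 UMIs per 10000, against 7.32 in the 141 without. The median raw count was 9 Neurog3 UMIs in both kinds, and in Itgb7 KO replicate 1 the median per 10000 was 4.52 with Neurod1 and 5.62 without. Median depth was 5983 UMIs in members with Neurod1 and 11738 UMIs in those without, so the members without Neurod1 were the deeper ones. Over 3615 genes (Neurog3, Neurod1 and the hormones left out), 342 were called higher in members with Neurod1 (9.46%) and 354 lower (9.79%). Members with Neurod1 had higher levels of most later factors, of the granule genes tested and of 4 of 8 cell-cycle inhibitors, while Dll1, Lfng and most mitotic genes were lower. Genes that go with Neurod1 in the same cells are not independent of this split, so these differences follow in part from it.

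Isl1, Pax6 and Scgn were found almost wholly in the members with Neurod1. Isl1 had 226 UMIs in them and 1 in the others, Pax6 55 and 0, and Scgn 52 and 0. Pax4 averaged 142.6 ± 95.1 CPM in members with Neurod1 and 9.57 ± 9.19 CPM in members without (SD, n = 6 each), a log2 fold change of 3.92 ± 0.32 (adjusted p = 3.24e-07). Of 13 tested enteroendocrine factors 10 were called higher and 0 lower, and of 7 granule genes 7 were higher. Chgb averaged 6071 ± 3776 CPM in members with Neurod1 and 59.3 ± 78.9 CPM in those without (6.62 ± 0.72), while Scg2 was at 0 UMIs in members with Neurod1 and 5 UMIs in those without. Fev (5.68 ± 0.48), Nefm, a neurofilament (5.41 ± 0.53), and Cacna2d1, a calcium channel subunit (5.27 ± 0.37), were among the largest rises.

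Insm1, Sox4, Hes6 and Slc39a2 were shared by both kinds of member. Insm1 averaged 1222.8 ± 866.3 CPM in members with Neurod1 and 513.1 ± 411.0 CPM in those without, a smaller but called difference (1.30 ± 0.13). Sox4 (-0.07 ± 0.15, adjusted p = 0.784), Hes6 (0.09 ± 0.14, adjusted p = 0.703) and Slc39a2 (0.06 ± 0.20, adjusted p = 0.863) did not pass the test. Dll1 was lower with Neurod1, at 37.98, 60.3 and 48.7 CPM in Itgb7 KO libraries and 23.3, 110.5 and 78.1 CPM in wild-type libraries, against 70.1 to 367.3 CPM in members without it (-1.79 ± 0.21), and Lfng was lower by 0.94 ± 0.22.

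Of 14 tested genes of G2 and mitosis 11 were called lower in members with Neurod1 and 0 higher, with a median of -0.95. Their sum was 249.0 to 1841 CPM in members with Neurod1 and 1087 to 2419 CPM in those without, with overlap between libraries. Top2a, the topoisomerase of mitotic chromosomes, fell by 1.46 ± 0.37 (lower in 5 of 6 libraries), a call lost without wild-type replicate 2. Cell-cycle inhibitors went the other way, with 4 of 8 called higher. Cdkn1c averaged 364.7 ± 234.4 CPM in members with Neurod1 and 41.0 ± 36.8 CPM in those without (3.14 ± 0.24), and Cdkn1a 823.2 ± 319.5 CPM and 203.1 ± 57.8 CPM (1.83 ± 0.13). The class II antigen presentation gene Cd74 was lower with Neurod1 by 1.24 ± 0.32, in 5 of 6 libraries. Tff3 fell by 0.74 ± 0.10 (lower in 5 of 6 libraries) and Lyz1, the Paneth lysozyme, by 2.31 ± 0.50, and the Paneth-rich barcodes lie among the members without Neurod1.

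Between genotypes, no gene passed the edgeR test in members without a batch term. Of 6435 genes, edgeR called 0 (0%) at an adjusted p under 0.05 and 128 had an unadjusted p under 0.05, while DESeq2 called 2, Isl1 and Cdkn1c. The 128 are a smaller share of the tested genes than the 0.05 that evenly spread p-values would give. In simulated counts the same edgeR test found 17.4% of 2-fold and 75.8% of 4-fold changes, so 0 calls do not show that no gene differed. With the Paneth-rich barcodes left out edgeR again called 0. In the tests below without a batch term the edgeR adjusted p is 0.9998 for every gene. Folds are log2 of Itgb7 KO over wild-type. Groups of 3 and 3 libraries that do not overlap give an exact permutation p of 0.1, which is not rare over many genes. The share of all tested genes without overlap is not given here, and some genes were named for their low p.

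The gene of lowest p was Isl1, the late endocrine factor. It had 94.2, 113.2 and 128.1 CPM in members of Itgb7 KO libraries, against 10.3, 25.2 and 49.9 CPM in those of wild-type libraries, and 14.9 CPM in wild-type replicate 1 without the 2 barcodes (1.89 ± 0.36, unadjusted p = 0.000259). Cdkn1c had 229.8, 275.9 and 388.3 CPM in members of Itgb7 KO libraries, against 24.3, 100.95 and 122.7 CPM in those of wild-type libraries (1.74 ± 0.37). For both genes the groups did not overlap, yet the fold did not pass adjustment. With the serial-number batch as a term edgeR called 7 genes. Those higher were Isl1 (1.94 ± 0.31, adjusted p = 0.0165) and Cdkn1c (1.82 ± 0.25, adjusted p = 0.00586). Those lower were 5, the goblet mucin Muc2 (-1.74 ± 0.27, adjusted p = 0.0145), Reg4, Gm15284, Ccl6 and Fabp6, the ileal bile acid binding protein (-2.61 ± 0.42, adjusted p = 0.0171). Fabp6 had 51.1, 7.08 and 24.0 CPM in members of Itgb7 KO libraries, against 143.7, 162.2 and 52.0 CPM in those of wild-type libraries, without overlap. Agpat4 below was not called with that term (adjusted p = 0.0739). Tph1 (1.75 ± 0.52) was at 98.95, 93.4 and 228.2 CPM in Itgb7 KO libraries, against 9.33, 74.5 and 22.9 CPM in wild-type libraries. Neurod1, the marker of the split, overlapped, with 181.9, 325.5 and 756.7 CPM in Itgb7 KO libraries, against 34.5, 198.3 and 332.8 CPM in wild-type libraries (1.04 ± 0.58). The share of members with a Neurod1 UMI was 60.3% ± 9.15 in Itgb7 KO libraries and 47.1% ± 10.7 in wild-type libraries (SD, n = 3 each; exact permutation test, p = 0.3). At 5000 UMIs per barcode, which left out 70 Itgb7 KO and 8 wild-type members, the shares were 34.3% ± 10.2 in Itgb7 KO libraries and 32.99% ± 17.3 in wild-type libraries (exact permutation test, p = 0.8).

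Agpat4, an acyltransferase of phospholipid synthesis, was among the genes of lowest p with a negative fold. It stood at 1.596, 7.08 and 12.01 CPM in Itgb7 KO libraries, against 16.8, 36.1 and 31.2 CPM in wild-type libraries (-2.42 ± 0.49). Its groups did not overlap, and secretory progenitors held 2.39 to 3.43 CPM in Itgb7 KO libraries, against 17.8 to 20.4 CPM in wild-type libraries. Guca2a, the hormone guanylin, was at 518.7, 448.6 and 188.2 CPM in Itgb7 KO libraries, against 1418, 588.9 and 850.7 CPM in wild-type libraries (-1.66 ± 0.50). Cd74 was at 456.4, 496.7 and 192.2 CPM in Itgb7 KO libraries, against 154.9, 21.6 and 99.8 CPM in wild-type libraries (1.65 ± 0.63), and once the 2 barcodes were left out wild-type replicate 1 stood at 228.8 CPM and the groups overlapped.

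The medians of most lists moved when wild-type replicate 1 was left out. The median over 22 tested enteroendocrine factors was 0.52, against 0.00 over all genes, and 0.20 without that replicate, and over 15 granule genes it was 0.74, and 0.23 without it. Goblet markers had a median of -1.13 over 12 genes, and -0.12 without it, and Paneth markers of -5.09 over 6, and 0.39 without it. The 4 tested class II genes had a median of 1.58, and 2.80 without that replicate, and the 22 genes of G2 and mitosis one of -0.23, which was 0.03 without wild-type replicate 1. Without a batch term, none of these lists held a called gene under edgeR, and with the serial-number batch as a term Isl1 and Muc2 were called. Of the integrin and E-cadherin genes, which bear on the adhesion named in the study's title, 7 were tested and Cdh1, E-cadherin, was at -0.23 ± 0.23 and Itgb1, the β1 integrin subunit, at 0.25 ± 0.26.

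**Figure D4:**
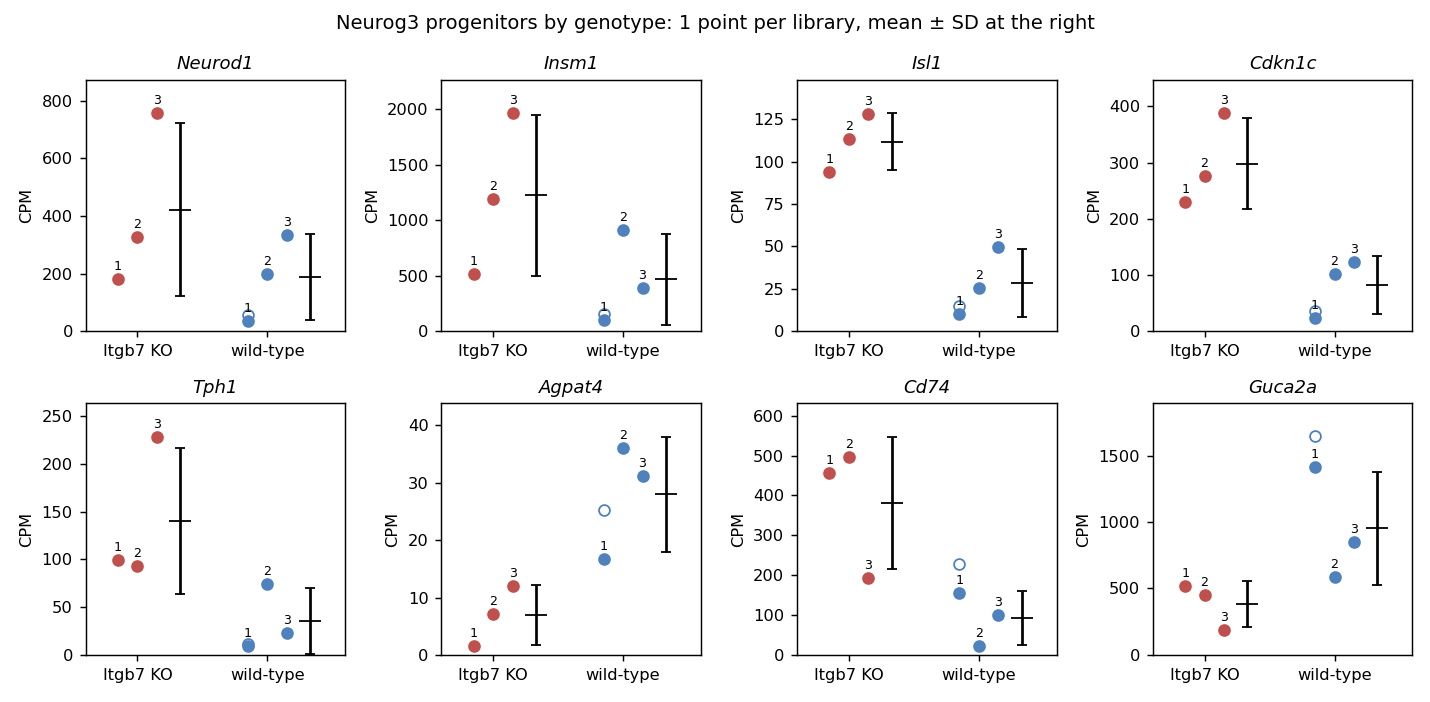
CPM of 8 genes in members, 1 point per library with its replicate number, Itgb7 KO left of wild-type, and mean ± SD (n = 3) to the right of each group; the open circle is wild-type replicate 1 without its 2 Paneth-rich barcodes. Isl1, Cdkn1c, Tph1, Agpat4, Guca2a and Cd74 do not overlap between genotypes as deposited and Neurod1 and Insm1 do. Some of these genes were named for their low p, and the share of all tested genes without overlap is not given. No gene shown passes adjustment without a batch term (edgeR adjusted p 0.9998).

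Whether the difference between progenitors and hormone-bearing cells itself depended on genotype was tested as an interaction. Of 6184 genes 18 were called (0.291%), 1 higher (0.0162%) and 17 lower (0.275%), and most of the lower ones were products of Paneth or goblet cells. Isl1 was the 1 higher, at 1.97 ± 0.36 (adjusted p = 0.0118): progenitors lay nearer to hormone-bearing cells in Itgb7 KO than in wild-type libraries, and hormone-bearing cells had 538.7, 790.5 and 639.5 CPM in Itgb7 KO libraries, against 287.97, 1103.6 and 786.1 CPM in wild-type libraries. The call for Isl1 was lost without any 1 of Itgb7 KO replicates 1, 2 and 3 or wild-type replicate 2, and also with doublets removed or at 3 or more Neurog3 UMIs. With the Paneth-rich barcodes left out 3 genes were called, Isl1, Guca2a and the Paneth lectin Itln1. Without Itgb7 KO replicate 1 edgeR called 0, and over single libraries left out the count ran from 0 to 29. Cdkn1c was at 1.49 ± 0.35 (adjusted p = 0.108).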

How the data were processed

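The authors deposited raw UMI counts for each gene in each barcode of 10x 3' libraries, with no scaling. The build was mm10, and the tools named were Cell Ranger 2.1.1, bcl2fastq 2.17.1.14 and Seurat, per the submitters' processing notes. Positions came from GENCODE M21, which held 27645 of the 27998 gene identifiers (98.7%), and promoters from RefSeq. Of 26153 barcodes, 3 failed the minimum of 500 genes and 107 the limit of 25% mitochondrial UMIs.

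Counts were summed per library and cell set, and tested with edgeR 4.0.16 (quasi-likelihood, TMM scaling, filterByExpr, Benjamini-Hochberg adjustment over all genes tested, 0.05) in R 4.3.3. Genotype was the only term in the comparison of genotypes, and library was a term in comparisons of cell sets. Sets of values per library were tested with exact 2-sided permutation tests. DESeq2 1.42.0, no filter on low counts, thinning, stricter limits on Neurog3 or hormones, leaving out each library and removal of doublets were alternatives. The statistics were tested first on simulated counts, whose spread between libraries was fixed and may differ from that of the data. By genotype the test found 17.4% of 2-fold and 75.8% of 4-fold changes, and the interaction test 0% and 13.7%. Doublets were kept. Scrublet in scanpy 1.11.5 marked 0.0349 to 1.48% of barcodes by its automatic threshold, so the alternative removed the highest-scoring 0.8% per 1000 barcodes, 977 in all, 26 of them members.

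The text names the markers and regulators of a fixed list, up to 4 called members of each of 20 gene lists, and up to 8 further genes each way whose mean log2 CPM reached 5 and whose direction was the same in every library (up to 2 members per list and 6 genes by lowest p where none was called). The members, lists and tests were chosen with earlier results of these data known. Same-numbered libraries were not treated as pairs.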

Additional observations from a re-analysis of the deposited data

Results flagged for a closer look

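In 10 of the genes named, the difference between Neurog3 progenitors and hormone-bearing cells differed between Itgb7 KO and wild-type libraries by the edgeR interaction test. Values are the log2 difference in Itgb7 KO minus that in wild-type libraries. Isl1 was higher at 1.97 (adjusted p = 0.0118), a call lost without Itgb7 KO replicate 1, 2 or 3 or wild-type replicate 2, with doublets removed and at 3 or more Neurog3 UMIs. The goblet genes Guca2a and Muc2 were lower, at -2.19 (adjusted p = 0.00561) and -1.95 (adjusted p = 0.0343). The Guca2a call was lost without Itgb7 KO replicate 1, with doublets removed and at 3 or more Neurog3 UMIs. The Muc2 call was lost in those 3 cases and also without Itgb7 KO replicate 2 or 3, without wild-type replicate 2 and without the Paneth-rich barcodes. Both genes too were highest in members of wild-type replicate 1, at 1418 CPM for Guca2a and 598.2 CPM for Muc2. The other 7, most of them Paneth products, also had their highest level in members of wild-type replicate 1. They were Itln1 at -5.53, Mptx2 at -5.85, Ang4 at -3.32, Defa22 at -5.26, Gm7861 at -6.16, Lyz1 at -2.73 and Ccl6 at -2.69. Mptx2 was at 0.74, Ang4 at 0.16 and Defa22 at 0.06 once the 2 Paneth-rich barcodes of wild-type replicate 1 were left out. Defa22 has near-identical copies, so its own count is uncertain.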

How the results depend on the processing

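The share of progenitors by genotype was 0.197 points at 3000 UMIs per barcode, -0.116 points at 5000 and -0.0921 points with a common UMI minimum, an alternative chosen after seeing the data in which Itgb7 KO replicate 3 kept 37 barcodes and 0 progenitors, and lay between 0.0953 and 0.364 points with single libraries left out. The log2 difference in hormone-bearing cells per progenitor lay between 0.573 and 1.40. Genes called by genotype numbered 2 with DESeq2 and 57 without the low-count filter, and 0 with any library left out. Against hormone-bearing cells, genes called higher and lower numbered 413 and 461 with DESeq2, 1123 and 1258 without the filter, and 329 and 339 at 5000 UMIs. With single libraries left out they lay between 429 and 981 higher and between 421 and 916 lower. Against secretory progenitors 975 were higher at 5000 UMIs, and with libraries left out 1193 to 1651 were higher and 1235 to 1662 lower. In the split by Neurod1 the counts were 174 and 170 with DESeq2, 593 and 567 without the filter, and 177 and 206 at 5000 UMIs, with 204 to 432 higher and 162 to 503 lower as libraries were left out. The interaction called 7 genes with DESeq2, 39 without the filter, 1 at 3 or more Neurog3 UMIs, 8 without doublets, 3 without the Paneth-rich barcodes (an alternative also chosen after seeing the data) and 0 to 29 with libraries left out. The number of genes tested also changed. At 5000 UMIs it was 2124 rather than 4981 against hormone-bearing cells, 6657 rather than 8419 against secretory progenitors and 1464 rather than 3615 in the split. The counts of 981 and 916 against hormone-bearing cells came without wild-type replicate 1. Why the counts changed was not tested.

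Same-numbered libraries of the 2 genotypes had correlations of deviations of 0.504, 0.0149 and 0.293, which does not show pairing. With replicate number as a block 8 genes were called by genotype, among them Isl1, Cdkn1c and the secretory products Reg4, Zg16 and Muc2, and 7 with serial numbers as a block. Without the library block, counts were 295 and 484 against hormone-bearing cells and 184 and 66 in the split by Neurod1.

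Signs turned for Zg16 in the Neurod1 split at 5000 UMIs (-0.14). In the interaction they turned for Mptx2 with DESeq2 (0.68), at 3 or more Neurog3 UMIs (0.95) and without the Paneth-rich barcodes (0.74). Ang4 turned under the last 2 (0.21 and 0.16), as did Defa22 (0.0897 and 0.0631), which lay between -5.55 and 1.138 with single libraries left out, the highest without wild-type replicate 1. Of the values for single genes under alternatives, 629 of 657 by genotype, 947 of 1027 against hormone-bearing cells, 874 of 905 against secretory progenitors, 627 of 727 in the split and 434 of 498 in the interaction kept both direction and side of the threshold. Of the 21 members under 3000 UMIs, 20 came from Itgb7 KO replicate 3.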
